A study of Homo sapiens with 40 samples.

Results

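The 8q24 window at PCAT1 is the stretch of human chromosome 8 from 127.5 to 128.2 Mb of the hg19 build, 700 kb long. Its members were the CENP-A ChIP-Seq peaks that start within it, taken from 6 merged peak lists of SW480 cells. They numbered 523 of the 5748 peaks in the lists. The rule for a member used its position and no other value.

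SW480 is an established line from a human colon cancer. It received control siRNA, siRNA against DAXX, HIRA or HJURP, or siRNA against a pair of these chaperones, HIRA+DAXX or HIRA+HJURP, by electroporation, and was harvested after 72 hours. Control and the DAXX, HIRA and HJURP knockdowns each had 4 ChIP libraries, HIRA+DAXX and HIRA+HJURP had 2 each, and each ChIP library had an input. The labels call the control cells untreated, whereas the results and figure legends of the study name a control siRNA. Chromatin was digested with MNase for 15 minutes without crosslinking and precipitated with ACA serum, a human serum against centromere proteins. The peaks of a condition's replicates had been merged into 1 list, so the values below lack a replicate error and differences between the lists have no test. Depth is unknown from these lists, and library depths were not used here. The lists hold no read count, score or measure of DNA copy number.

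CENP-A is the histone H3 variant that marks centromeric chromatin, and HJURP is the chaperone that deposits it there. HIRA and DAXX are chaperones of another H3 variant, H3.3, and CENP-A that is found away from centromeres is called ectopic. The band 8q24 next to the oncogene MYC holds few protein-coding genes and several long non-coding RNA (lncRNA) genes that were described in prostate and colorectal cancer, PCAT1, PRNCR1 and CASC19 among them.

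All 5 knockdown lists held more peaks in the window than the control list. Control had 30 peaks. DAXX knockdown had 118, or 3.93 times control, HJURP knockdown 98, or 3.27 times, and HIRA knockdown 48, or 1.60 times. HIRA+DAXX had 84 peaks, or 2.80 times control, and HIRA+HJURP had 145, or 4.83 times. The order of the lists depended on how peaks were counted. With peaks of at least 500 bp alone, the ratios were 4.12 for DAXX, 3.62 for HJURP, 2.96 for HIRA+HJURP, 1.67 for HIRA and 1.38 for HIRA+DAXX. With peaks within 10000 bp of each other taken as 1 site the order changed again, with 5 sites in control, 6 in HJURP and HIRA+HJURP, 7 in DAXX, 8 in HIRA and 10 in HIRA+DAXX. The extra peaks of the DAXX, HJURP and HIRA+HJURP lists therefore lay mostly in the same clusters as other peaks of their list. In HIRA the ratio of sites to control was 1.60, equal to that of peaks, and in HIRA+DAXX it was 2.00.

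The share of each list in the window was also computed. The window held 7.35% of all control peaks (95% Wilson interval 5.20 to 10.3%, counting error only, as for all intervals here). After DAXX knockdown the share was 12.4% (10.5 to 14.6%) and after HJURP knockdown 10.4% (8.63 to 12.5%). The other 3 lists had shares of 9.17% in HIRA+HJURP (7.84 to 10.7%), 8.25% in HIRA+DAXX (6.71 to 10.1%) and 5.66% after HIRA knockdown (4.30 to 7.42%). Neighbouring peaks are not independent and each list is 1 value, so these intervals do not show whether the lists differ. Outside the window, the ratio of peak numbers to control was 3.80 for HIRA+HJURP, 2.47 for HIRA+DAXX, 2.23 for HJURP, 2.21 for DAXX and 2.12 for HIRA. In number, the HIRA list was the only one whose ratio was lower inside the window than outside. In coverage, given below, each knockdown ratio was higher inside than in the rest of the list.

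**Figure D1:**
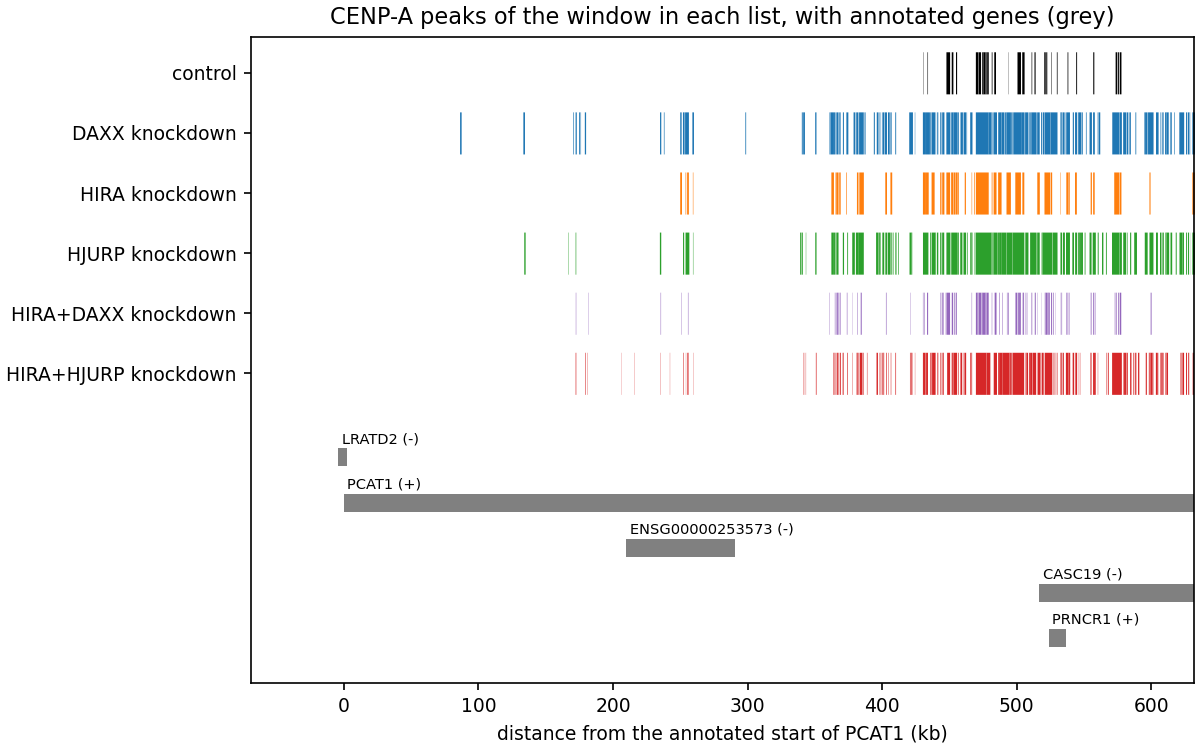
Position of the CENP-A peaks in each of the 6 lists (coloured bars, 1 row per list) and of 5 annotated genes (grey bars, strand in brackets) along the window, as distance from the annotated start of PCAT1 in kb. The 30 control peaks sit in a stretch of 147.0 kb, and the knockdown lists reach to both sides of it.

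The control peaks were confined to the distal part of the window, from chr8:127998914 to 128145894, a stretch of 147.0 kb. The knockdown lists spread over 382.5 kb for HIRA, 427.7 kb for HIRA+DAXX, 459.2 kb for HIRA+HJURP, 498.3 kb for HJURP and 546.2 kb for DAXX. The window leaves 498.9 kb proximal to the control stretch and 54.1 kb distal to it, so these spans could grow mainly on the proximal side. The first peak started at 127654652 after DAXX, 127702324 after HJURP and 127818145 after HIRA knockdown, and at 127740607 and 127740485 in HIRA+DAXX and HIRA+HJURP. No list had a peak in the 154.7 kb from the window's proximal edge to the first DAXX peak, the longest empty stretch. The next empty stretches were 127655800 to 127701649, at 45.9 kb, and 127867121 to 127907246, at 40.1 kb.

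In bins of 100 kb, the peaks of all lists gathered between 127.9 and 128.2 Mb. The bin from 128.0 to 128.1 Mb held 22 of the 30 control peaks, and 22 HIRA, 36 DAXX, 30 HJURP, 47 HIRA+DAXX and 44 HIRA+HJURP peaks. HIRA and control thus had the same number there. Peaks covered 23.6% of this bin in control, 47.7% after HIRA, 78.8% after DAXX and 79.9% after HJURP knockdown, and 31.1% and 67.6% in HIRA+DAXX and HIRA+HJURP. The flanking bins set the lists further apart. From 127.9 to 128.0 Mb control had 1 peak, HIRA 10, HIRA+DAXX 18, HJURP 25, DAXX 26 and HIRA+HJURP 39. From 128.1 to 128.2 Mb the numbers were 7 for control, 12 for HIRA, 14 for HIRA+DAXX, 36 for HJURP, 40 for DAXX and 50 for HIRA+HJURP. Without the fullest bin the ratios of peak numbers to control rose to 12.6 for HIRA+HJURP, 10.2 for DAXX, 8.50 for HJURP, 4.62 for HIRA+DAXX and 3.25 for HIRA, because control kept 8 peaks.

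**Figure D2:**
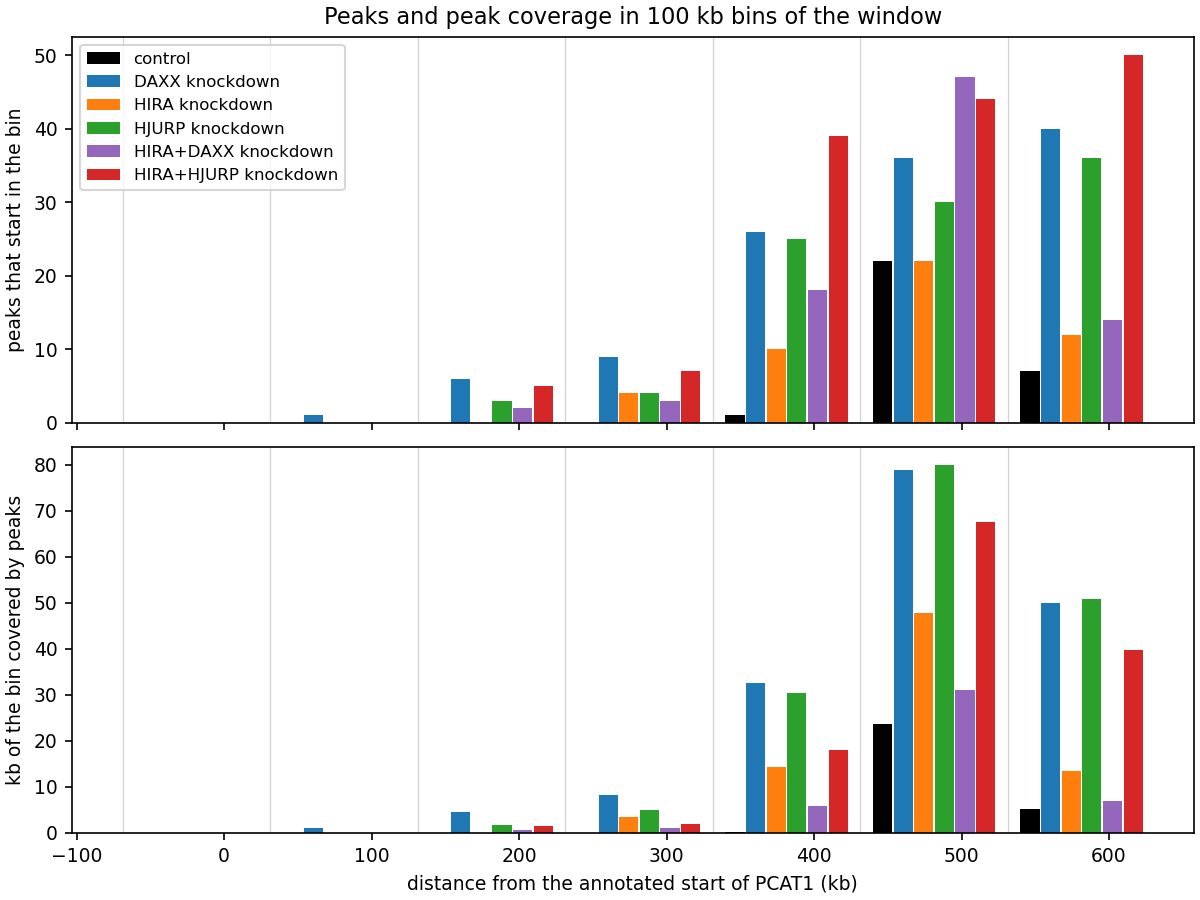
Number of peaks that start in each 100 kb bin (top) and kb of the bin covered by peaks (bottom), against distance from the annotated start of PCAT1 in kb, with 1 bar per list. In the fullest bin control and HIRA knockdown each have 22 peaks, but 23.6 and 47.7 kb of coverage.

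Peak coverage, the summed length of the peaks in the window, moved further than their number after each single knockdown. It was 29.1 kb in control, 4.15% of the window. After DAXX knockdown it was 176.0 kb or 25.1%, after HJURP knockdown 168.5 kb or 24.1% and after HIRA knockdown 79.4 kb or 11.3%. These were 6.05, 5.80 and 2.73 times control. HIRA+DAXX covered 45.4 kb, or 1.56 times control, although it had more peaks than HIRA knockdown. HIRA+HJURP covered 128.8 kb, or 4.43 times control, although it had more peaks than DAXX or HJURP knockdown. Outside the window the coverage ratios were 0.652 for HIRA+DAXX, 1.20 for HIRA+HJURP, 1.58 for HIRA, 1.83 for HJURP and 2.31 for DAXX. The neighbouring stretches of 8q24 did not share these low values. From 126.6 to 127.5 Mb and from 128.2 to 128.6 Mb the coverage ratios were 8.33 and 10.5 for DAXX, 7.17 and 11.5 for HJURP, 3.86 and 3.04 for HIRA, 4.96 and 7.89 for HIRA+HJURP, and 1.49 and 1.69 for HIRA+DAXX. The gain in coverage was thus not particular to the window, and in all but the proximal HIRA+DAXX value it was larger beside it.

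The width of single peaks accounts for this difference between number and coverage. The median width was 802 bp in control, 1018 bp after DAXX, 1090 bp after HJURP and 1300 bp after HIRA knockdown. HIRA+HJURP had a median of 487 bp and HIRA+DAXX one of 378 bp. Peaks of 2000 bp or wider numbered 2 in control, 11 after HIRA, 24 after DAXX, 26 after HJURP knockdown, 3 in HIRA+DAXX and 12 in HIRA+HJURP. Under 500 bp were 6 control, 8 HIRA, 19 DAXX, 11 HJURP, 51 HIRA+DAXX and 74 HIRA+HJURP peaks. The lists from 2 libraries were thus the ones rich in narrow peaks. The number of libraries and the knockdown of a pair of chaperones cannot be told apart in these lists. In the rest of each list the median widths were 785 bp for control, 841 bp for DAXX, 744 bp for HJURP, 691 bp for HIRA, 256 bp for HIRA+HJURP and 265 bp for HIRA+DAXX. The median was therefore higher inside the window than in the rest of the list for all 6, with the smallest gap in control. In each knockdown list this was not particular to the window, since the proximal (126.6 to 127.5 Mb) and distal (128.2 to 128.6 Mb) stretches also had higher medians. In control they had 767.5 and 585 bp, below the rest of the list. Above the window itself were DAXX with 1157 bp in the proximal stretch, and HJURP with 1113 bp and HIRA+HJURP with 618 bp in the distal stretch. The other medians of these stretches were below those of the window, as for HIRA with 1025 and 1167 bp.

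The widest peaks of the lists lay at a few shared places. A peak of 11673 bp at chr8:128037733-128049405 was the widest after HJURP knockdown. The widest after DAXX knockdown, 9592 bp at chr8:128037735-128047326, and after HIRA knockdown, 9551 bp at chr8:128037753-128047303, began almost at the same base. HIRA+HJURP had its second widest peak there, 7870 bp at chr8:128037787-128045656. All of them lay in introns of PCAT1. The control list had 7 separate peaks under the DAXX, HIRA and HJURP peaks at this place, among them the third widest, 1820 bp at chr8:128039791-128041610. HIRA+DAXX had 7 peaks there too, including its widest ones after the first, 2336 bp at chr8:128042475-128044810 and 2019 bp at chr8:128039805-128041823.

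A further cluster of wide peaks began 27.2 kb distal to the start of the HJURP peak, also in a PCAT1 intron. The widest HIRA+HJURP peak, 8625 bp at chr8:128065005-128073629, lay there, as did the second widest peaks of HJURP knockdown (8784 bp, chr8:128064983-128073766), DAXX knockdown (5885 bp, chr8:128066030-128071914) and HIRA knockdown (4180 bp, chr8:128067050-128071229). Control had its second widest peak at this place, 2588 bp at chr8:128068676-128071263. The widest control peak, 2740 bp at chr8:128015896-128018635, matched the widest HIRA+DAXX peak, 2711 bp at chr8:128015877-128018587. The third widest peaks lay in introns of PCAT1 that CASC19 also spans, at chr8:128139080-128144415 (5336 bp) for DAXX and chr8:128138949-128146182 (7234 bp) for HIRA+HJURP. Those of HIRA, 4117 bp at chr8:128088721-128092837, and of HJURP, 7432 bp at chr8:128087197-128094628, reached exons and the start of PRNCR1.

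The median distance between neighbouring peaks was shorter than in control in 4 of the 5 knockdown lists as deposited, HIRA being the exception, but this count changed with the treatment of the peaks. The median distance from the end of a peak to the start of the next was 1948 bp in control (95% interval from order statistics 554 to 5866 bp). It was 609 bp after DAXX (468 to 937 bp), 839 bp after HJURP (712 to 1333 bp) and 2129 bp after HIRA knockdown (834 to 3662 bp). HIRA+HJURP had 804 bp (317 to 966 bp) and HIRA+DAXX 891 bp (592 to 1341 bp). All 5 intervals overlapped that of control, which rests on 29 distances. Distances within a list are not independent, and the lists lack a replicate error. The overlap therefore does not show whether the lists differ. With peaks of at least 500 bp alone, the median was 1339 bp in control, 1317 bp in HIRA+HJURP and 1782 bp in HIRA+DAXX, the last now longer than control. With peaks joined at 1000 bp it was 5539 bp in control and 4176 bp in HIRA, so that all 5 were shorter. Distances of 1000 bp or less made up 37.9% of the distances in control, 40.4% in HIRA, 51.8% in HIRA+DAXX, 52.6% in HJURP, 59.7% in HIRA+HJURP and 62.4% in DAXX.

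**Figure D3:**
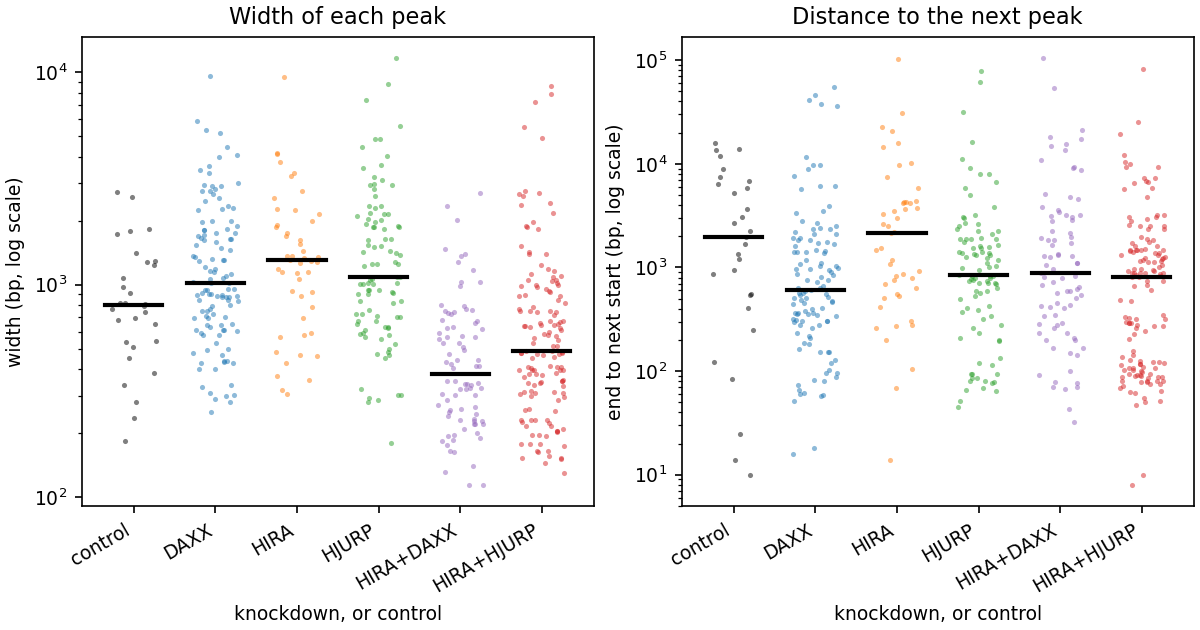
Width of each peak of the window (left) and distance from its end to the start of the next (right), in bp on log scales, with 1 point per peak or distance and a bar at the median of each list. HIRA+DAXX and HIRA+HJURP have the narrowest peaks, with medians of 378 and 487 bp, and DAXX knockdown has the shortest median distance, 609 bp.

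Joined at 10000 bp, the peaks of the distal part formed a long cluster in the DAXX, HJURP and HIRA+HJURP lists. The DAXX cluster held 102 of 118 peaks over 292.4 kb and was 55.4% covered. The HJURP cluster held 87 of 98 peaks over 270.2 kb, and that of HIRA+HJURP 101 of 145 over 210.9 kb. All 3 reached the distal edge of the window, and the next peak beyond their last lay 0.597 kb away for DAXX, 0.942 kb for HJURP and 0.461 kb for HIRA+HJURP. For HIRA the next peak was 0.774 kb and for HIRA+DAXX 32.2 kb beyond the last. The window edge therefore cut through a run of peaks in the DAXX, HJURP, HIRA+HJURP and HIRA lists. In control the fullest cluster held 20 peaks over 75.2 kb, and the next peak beyond the last was 55.9 kb away. The HIRA cluster held 28 of 48 peaks over 114.3 kb and the HIRA+DAXX cluster 41 of 84 over 73.0 kb. The longest gap within a list was 15.8 kb in control, 54.9 kb in DAXX, 79.3 kb in HJURP, 81.9 kb in HIRA+HJURP, 102.5 kb in HIRA and 104.8 kb in HIRA+DAXX.

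Nearly every control peak of the window was also touched in each knockdown list. All 30 shared at least 1 base with a DAXX and with an HJURP knockdown peak, 29 with HIRA+HJURP, 28 with HIRA+DAXX and 27 with HIRA peaks. These were 100.0% (88.6 to 100.0%) for DAXX and HJURP, 96.7% (83.3 to 99.4%) for HIRA+HJURP, 93.3% (78.7 to 98.2%) for HIRA+DAXX and 90.0% (74.4 to 96.5%) for HIRA. Most of the other 378 control peaks were touched as well, 84.9% by DAXX, 80.2% by HJURP, 82.8% by HIRA+HJURP, 73.3% by HIRA+DAXX and 83.9% by HIRA peaks. For HIRA the share in the window was thus near that of the rest of the list. In bases, the shared part of the control coverage was 99.4% for DAXX, 99.3% for HJURP, 93.3% for HIRA+HJURP, 91.4% for HIRA and 80.8% for HIRA+DAXX. Of the 30 control peaks, 25 were touched in all 5 knockdown lists, 4 in 4 of them and 1 in 3. The last was chr8:128097919-128098424 in PRNCR1, singled out after its values were seen, which had no HIRA or HIRA+DAXX peak. The number of lists touching a control peak was not counted for the other 378.

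In the other direction, most knockdown peaks lay apart from control, but for HIRA+DAXX this depended on the definition. No base was shared with a control peak by 99 of 118 DAXX peaks, or 83.9% (76.2 to 89.4%), where the whole DAXX list had 68.6%. For HJURP it was 82 of 98 peaks, 83.7% (75.1 to 89.7%), against 66.2% in the whole list. For HIRA+HJURP it was 126 of 145, 86.9% (80.4 to 91.4%), against 64.6%, and for HIRA+DAXX 54 of 84, 64.3% (53.6 to 73.7%), against 49.9%. The HIRA+DAXX share was 45.2% with peaks extended by 500 bp, 36.4% with peaks of at least 500 bp and 48.2% in bases. The HIRA value, 30 of 48 peaks or 62.5% (48.4 to 74.8%), was near the 56.4% of its whole list. The neighbouring stretches had higher shares than the window in each list, from 65.3% for HIRA+DAXX to 87.4% for HIRA+HJURP in the proximal and from 73.7% for HIRA+DAXX to 90.9% for DAXX in the distal one. The knockdown comparisons share the control list, so these shares are not independent of each other. The peaks apart from control were narrower, as the split itself favours, since a wide peak meets a control peak more easily. They had a median of 892 bp against 2903 bp for those that touched control after DAXX, 1007 against 3792 bp after HJURP and 997 against 1842 bp after HIRA knockdown. HIRA+HJURP had 454 against 2185 bp and HIRA+DAXX 303 against 735 bp.

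Within the stretch between the first and the last control peak, a division chosen after the values were seen, number and coverage also moved apart. All 30 control peaks lie inside this stretch by construction, so the values outside it have no control peak to be set against. HIRA knockdown had 31 peaks there against 30 in control, but 60.2 kb of coverage against 29.1 kb, a ratio of 2.07. HIRA+DAXX had 60 peaks and 38.0 kb, a ratio of 1.31 in coverage. Coverage of the stretch was 19.8% in control, 70.1% in DAXX, 72.4% in HJURP and 59.8% in HIRA+HJURP, and 41.0% in HIRA and 25.8% in HIRA+DAXX. Proximal to the stretch lay 42 DAXX, 32 HJURP, 14 HIRA, 22 HIRA+DAXX and 50 HIRA+HJURP peaks. Distal to it, in 54.1 kb, DAXX peaks covered 49.3%, HJURP peaks 46.9% and HIRA+HJURP peaks 38.1%, but HIRA peaks 3.73% and HIRA+DAXX peaks 1.25%.

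**Figure D4:**
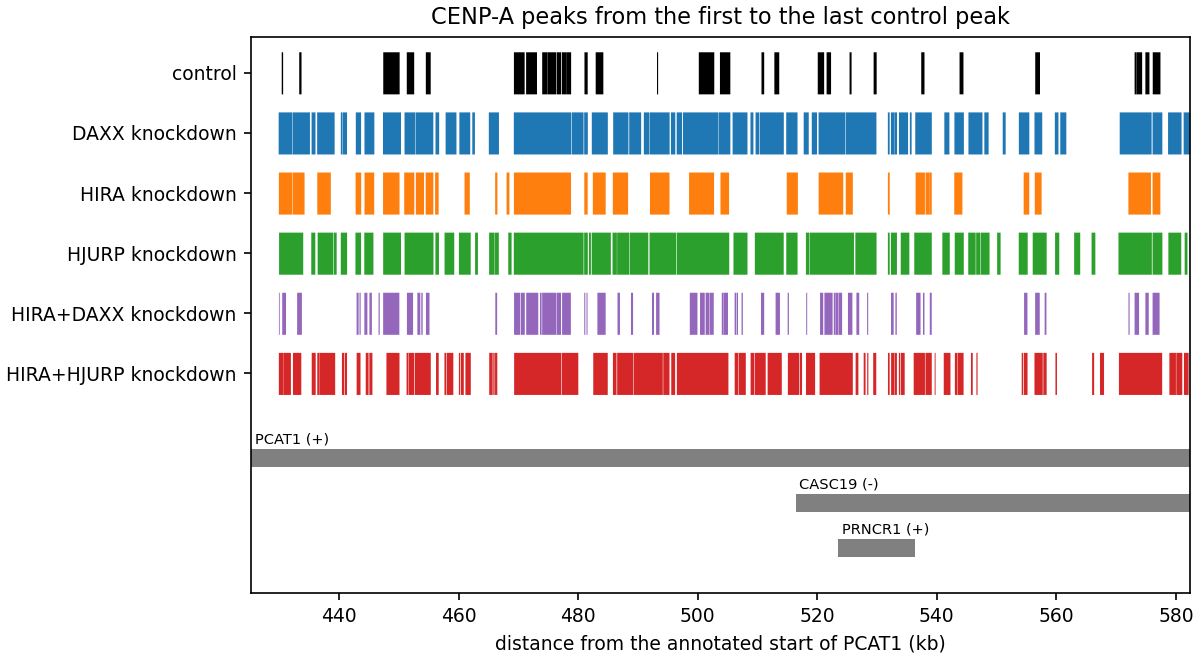
Peaks of the 6 lists (coloured bars, 1 row per list) and annotated genes (grey bars) from the first to the last control peak, as distance from the annotated start of PCAT1 in kb. Single wide peaks of DAXX, HIRA and HJURP knockdown span up to 7 control peaks.

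In each knockdown list a minority of the peaks that touched control held several control peaks. This was not counted outside the window. After HJURP knockdown 7 of the 16 peaks that touched control held 2 or more control peaks, after DAXX 5 of 19, after HIRA 3 of 18, in HIRA+HJURP 5 of 19 and in HIRA+DAXX 3 of 30. The HIRA+DAXX list differed from the others in that as many of its peaks touched control as control had peaks. No control peak held 2 or more DAXX, HIRA or HJURP peaks, whereas 4 held 2 or more HIRA+DAXX peaks and 1 held 2 HIRA+HJURP peaks. The peak starts differed likewise. The start of a touched control peak had an HIRA+DAXX start within 50 bp in 46.4% of 28 cases, against 10.0% to 18.5% for the other lists. In the rest of the control list the shares ran from 32.6% to 47.0%, so starts coincided less often inside the window for each list but HIRA+DAXX. Ends within 50 bp were less frequent inside the window for every list. For HIRA+DAXX they made up 32.1% against 37.2% in the rest, and for the other lists 6.67% to 24.1% in the window.

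The knockdown lists also overlapped each other. Of the 118 DAXX peaks, 92 or 78.0% touched an HJURP peak, and 85 of 98 HJURP peaks, 86.7%, touched a DAXX peak. The HIRA list was mostly contained in both, with 47 of 48 peaks touching a DAXX and 45 an HJURP peak, whereas 36.4% of DAXX and 37.8% of HJURP peaks touched a HIRA peak. Outside the window, 71.8% of DAXX peaks touched HJURP and 79.9% of HJURP peaks touched DAXX, close to the window. There, 73.5% of HIRA peaks touched DAXX and 65.4% HJURP, against 57.7% of DAXX and 59.7% of HJURP peaks that touched HIRA, so the HIRA overlaps were less one-sided than in the window. HIRA+DAXX peaks touched DAXX peaks in 95.2% and HIRA peaks in 73.8% of cases, and 37.3% of DAXX and 75.0% of HIRA peaks touched HIRA+DAXX. The same shares outside the window were 80.5%, 74.0%, 49.6% and 56.4%. HIRA+HJURP peaks touched HJURP peaks in 86.9% and HIRA peaks in 36.6% of cases, and 82.7% of HJURP and 91.7% of HIRA peaks touched HIRA+HJURP. Outside the window these were 63.8%, 56.1%, 70.2% and 66.9%. Differences between these shares follow in part from the sizes of the lists.

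Merged over the 6 lists, the peaks formed 123 regions that covered 206.1 kb. Regions held by 1 list numbered 41, with a median width of 438 bp, and came from DAXX in 18, HIRA+HJURP in 11, HJURP in 10 and HIRA+DAXX in 2 cases. No region was held by control or by HIRA alone. The 11 regions held by all 6 lists had a median width of 5233 bp and made up 72.6 kb. Regions were not counted over the whole lists, so these numbers do not show what is particular to the window. Bases covered in all 6 lists at once amounted to 21.5 kb in 30 stretches. The widest of these stretches was chr8:128016427-128018587, 2161 bp, followed by chr8:128039805-128041610, 1806 bp, and chr8:128043405-128044810, 1406 bp. All 3 lay in introns of PCAT1.

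The annotation, GENCODE release 44 on hg19, had 12 genes in the window, of which 7 were lncRNA genes, 1 was protein-coding, 2 were small nuclear RNA genes and 2 processed pseudogenes. Peaks of any list lay in 4 of them, all lncRNA genes. PCAT1, annotated at chr8:127568568-128431295 on the plus strand, spans most of the window, and all 523 peaks touched it. Because gene bodies made up 94.2% of the window, this says little about PCAT1. Its 34 annotated transcripts span 1447 to 734970 bp of the genome, introns included. The first peak of the window lay 86.1 kb from the most proximal annotated start of PCAT1 for DAXX, 133.8 kb for HJURP, 171.9 kb for HIRA+HJURP, 172.0 kb for HIRA+DAXX, 249.6 kb for HIRA and 430.3 kb for control. Other PCAT1 transcripts start further along, 4 of them between the first and the last control peak. LRATD2, also known as FAM84B, is the protein-coding gene of the window and lies on the minus strand, with its start inside the PCAT1 gene body. It had no peak in any list, with the nearest at 83.9 kb in DAXX and 304.2 kb in control.

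CASC19, an lncRNA gene on the minus strand at chr8:128084939-128239786, was touched by 11 control peaks, 36.7% of those in the window. DAXX had 45 peaks on it, HJURP 40, HIRA+HJURP 58, HIRA+DAXX 23 and HIRA 15. The part of CASC19 inside the window, 115.1 kb, was covered to 6.84% in control, 16.5% after HIRA, 53.4% after DAXX and 54.4% after HJURP knockdown, 10.2% in HIRA+DAXX and 42.8% in HIRA+HJURP. As a share of the list the CASC19 peaks varied less, from 27.4% in HIRA+DAXX to 40.8% in HJURP. In number, the gain on CASC19 was thus near that of the window as a whole, and below it in HIRA and HIRA+DAXX. The window was covered to 4.15% in control, 11.3% after HIRA, 25.1% after DAXX and 24.1% after HJURP knockdown, 6.48% in HIRA+DAXX and 18.4% in HIRA+HJURP. In coverage relative to control, CASC19 therefore rose further than the window in DAXX, HJURP and HIRA+HJURP, but not in HIRA and HIRA+DAXX.

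PRNCR1, an lncRNA gene of 1 exon at chr8:128092119-128104845 on the plus strand, lies within CASC19 and PCAT1. Control had 2 peaks on it that covered 6.61% of the gene. DAXX had 7 peaks over 73.2%, HJURP 6 over 70.2%, HIRA+HJURP 11 over 48.0%, HIRA+DAXX 6 over 20.4% and HIRA 3 over 17.3%. The control stretch around it was covered to 19.8% in control, 70.1% in DAXX, 72.4% in HJURP, 59.8% in HIRA+HJURP, 25.8% in HIRA+DAXX and 41.0% in HIRA. Only in DAXX was PRNCR1 covered more than this stretch. As a share of the list, the PRNCR1 peaks ranged from 5.93% in DAXX to 7.59% in HIRA+HJURP, with 6.67% in control. All 5 knockdown lists had a peak over its annotated start, whereas the nearest control peak was 1.32 kb away. ENSG00000253573, an antisense neighbour inside PCAT1 at chr8:127778441-127859226, was the remaining gene with peaks and was singled out after its values were seen. It had 0 control peaks, 8 in DAXX and HIRA+HJURP, 4 in HIRA and HJURP and 3 in HIRA+DAXX. These were 3.57% (HIRA+DAXX) to 8.33% (HIRA) of a knockdown list's peaks in the window, while the gene spans 80.8 kb of its 700 kb. The counts therefore do not show a gain particular to this gene. Of the genes distal to the window, CASC8 and POU5F1B were touched by peaks of all 6 lists, CCAT2 by all but control and HIRA, and MYC by none. The nearest peak was 386.8 kb from MYC in control, 373.0 kb in HIRA, 334.8 kb in HIRA+DAXX, 71.4 kb in HIRA+HJURP, 69.7 kb in DAXX and 24.7 kb in HJURP. PCAT2, CCAT1 and CASC21 were not matched by symbol and were not analysed here.

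Most peaks lay in introns. Exons of any gene were touched by 16.7% of control peaks (7.34 to 33.6%), 22.0% of DAXX (15.5 to 30.3%), 20.8% of HIRA (11.7 to 34.3%), 22.4% of HJURP (15.3 to 31.7%), 14.3% of HIRA+DAXX (8.37 to 23.3%) and 18.6% of HIRA+HJURP peaks (13.1 to 25.7%). Tiles of 1 kb touched exons in 15.3% over the whole window and in 23.6% within the control stretch. The intervals of the 6 lists overlapped each other and that of the tiles of the whole window (12.8 to 18.1%). Neighbouring peaks and tiles are not independent, so this overlap does not show that they are alike. In bases, exons made up 4.73% of the control peaks and 6.69% (HIRA) to 9.67% (HJURP) of the knockdown peaks. The tiles had 6.29% over the whole window and 12.8% within the control stretch. Wider peaks touch an exon more easily. Within 1 kb of an annotated transcript start lay 11.7% to 16.7% of the peaks of each list, and 10.9% of the tiles.

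The peaks shared a low GC content. Bases covered by no list were 41.0% GC, and bases covered by 1, 2, 3, 4, 5 and 6 lists were 37.7%, 37.6%, 36.9%, 35.9%, 35.3% and 35.0% GC. GC content thus fell with each further list. CpG dinucleotides numbered 8.90 per kb outside all peaks and 4.78 per kb in the peaks of any list. The median peak had 36.4% GC in control (quartiles 34.7 and 38.4%), 36.9% in DAXX, 35.1% in HIRA, 37.3% in HJURP, 35.9% in HIRA+DAXX and 36.9% in HIRA+HJURP. Tiles of 1 kb without a peak base had a median of 41.0% and a lower quartile of 38.0%, so the upper quartile of control lay just above that. Within the control stretch the contrast was larger, at 42.7% GC in bases of no list against 35.8% in control peaks. The part of base composition in the peak calls was not tested.

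**Figure D5:**
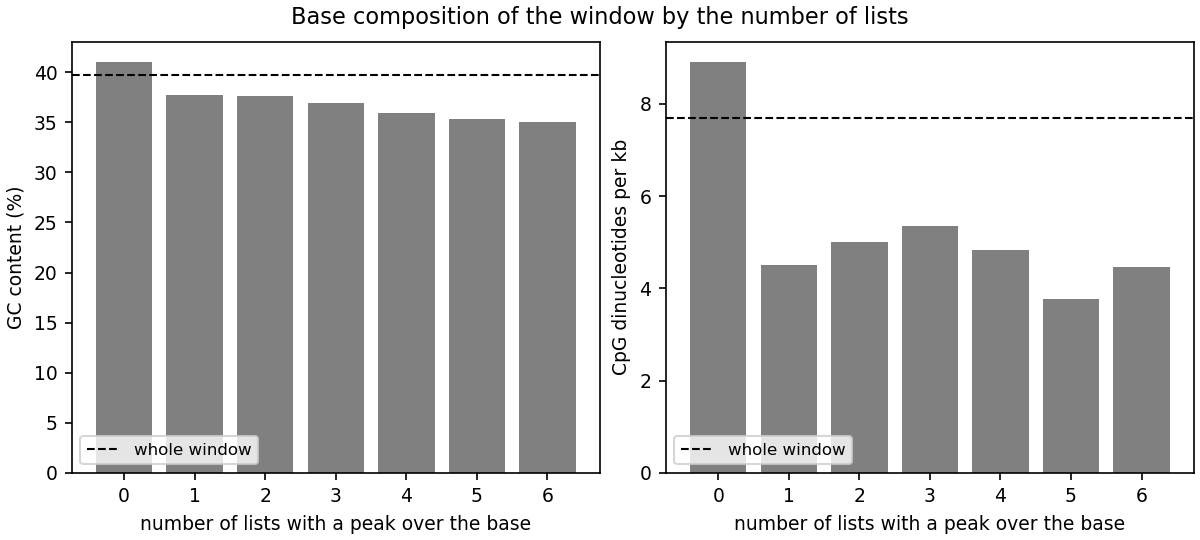
GC content in percent (left) and CpG dinucleotides per kb (right) of the bases of the window, by the number of lists that have a peak over the base. The dashed line is the whole window, at 39.7% GC and 7.69 CpG per kb, and the bars for GC fall from 41.0% at 0 lists to 35.0% at 6 lists.

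Control peaks were denser in the window than on either side of it. The control list had 42.9 peaks per Mb in the window, 15.6 per Mb in the proximal stretch from 126.6 to 127.5 Mb and 22.5 per Mb in the distal stretch from 128.2 to 128.6 Mb. The ratios of peak numbers to control were lower in the window in each knockdown list. Knockdown densities differed between the stretches as well, as for HJURP with 140.0 peaks per Mb in the window, 96.7 in the proximal and 180.0 in the distal stretch. For DAXX the ratio of peak numbers was 3.93 in the window, 6.36 in the proximal and 8.56 in the distal stretch, and for HJURP 3.27, 6.21 and 8.00. In density itself, the window and the distal stretch were alike after DAXX, at 168.6 and 192.5 peaks per Mb, with 25.1% and 24.6% of the bases covered. After HIRA knockdown the window was the densest of the 3, with 11.3% covered against 6.48% in the proximal and 7.10% in the distal stretch. These differences have no test, as each list is 1 value.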

How the data were processed

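The series holds 20 ChIP and 20 input samples of native CENP-A ChIP-Seq in 6 conditions. The authors used Trimmomatic for trimming and Bowtie2 2.2.6 for alignment to hg19, required a mapping quality of 10, ran MACS on every ChIP library with its own input as background, and merged the replicates. A merged peak needed support from 3 replicates. The rule for the conditions with 2 replicates is not given in the sources used here. The deposited lists hold peak starts and ends, which set the precision, and no score.

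Widths, coverage, distances and overlaps of at least 1 base were computed in Python 3.11.15 with numpy 2.4.6, and overlaps were checked with bedtools 2.31.1. Partner lists in overlaps were not cut at the window. Intervals are from scipy 1.17.1, figures from matplotlib 3.10.9. The interval code was tested on simulated data. Genome and annotation were GRCh37 and GENCODE release 44 lifted to it. All 5748 peaks lay on chromosomes named there, and the last peak on chromosome 8 ended before its 146364022 bases. The genome copy had no repeat masking, so repeats were not analysed.

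Members and lists were chosen with earlier results of these data known. Named genes were PCAT1, PCAT2, PRNCR1, CASC19, CCAT1, CASC21, CASC8, CCAT2, POU5F1B, LRATD2 and MYC, and other genes of the window with a control peak or at least 10 peaks of any list. Named peaks were the 3 widest of each list, the 3 widest stretches covered in all 6 and the 3 longest empty stretches. Alternatives changed peak width, merging, window edges and the definition of overlap.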

Additional observations from a re-analysis of the deposited data

How the results depend on the processing

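Ratios are called changed when they moved by more than 1.5 times, and shares and medians when they left their 95% interval. No ratio to control crossed 1. Joining peaks within 1000 bp gave 2.37 times control in number for DAXX and 3.11 for HIRA+HJURP. Sites joined at 10000 bp gave ratios in number of 1.40 for DAXX and of 1.20 for both HJURP and HIRA+HJURP, below the 1.60 of HIRA and the 2.00 of HIRA+DAXX, and in coverage of 3.48 for DAXX, 3.25 for HJURP and 1.80 for HIRA. Peaks of at least 500 bp gave ratios in number of 1.38 for HIRA+DAXX and 2.96 for HIRA+HJURP. Without the bin from 128.0 to 128.1 Mb, the number was 12.6 times control for HIRA+HJURP, 10.2 for DAXX, 8.50 for HJURP, 4.62 for HIRA+DAXX and 3.25 for HIRA, and coverage 11.3, 18.0, 16.7, 2.63 and 5.93 times, since control kept 8 peaks. Any-overlap membership, edges moved inwards by 50000 bp and removal of the widest 5% changed no ratio in this sense. The share of peaks apart from control became 94.1% for DAXX, 77.1% for HIRA, 95.9% for HJURP and 93.8% for HIRA+HJURP when overlap needed 50% of the peak. Extended by 500 bp it was 45.2% for HIRA+DAXX and 80.0% for HIRA+HJURP, with peaks of at least 500 bp 36.4% and 80.3%, and in bases 48.2% and 78.9%. The HIRA+DAXX share thus fell on either side of 50% with the definition. The median distance with peaks joined at 1000 bp was 1923 bp for HIRA+HJURP, 2266 bp for DAXX, 1907 bp for HJURP, 3189 bp for HIRA+DAXX and 4176 bp for HIRA, against 5539 bp in control, where joining removes the short distances. From midpoint to midpoint it was 1573, 2333, 2734, 1583 and 3845 bp in that order, against 3002 bp in control. With peaks of at least 500 bp it was 1782 bp for HIRA+DAXX and 1317 bp for HIRA+HJURP, against 1339 bp in control, so that HIRA+DAXX passed from below to above control. HIRA passed from above to below it with peaks joined. The share of peaks in genes changed in 0 of 18 cases. It was 100.0% in every list because all peaks touched PCAT1, so this says nothing about stability. Where no construction shows it, the cause was not tested. No paired analysis was possible because each condition has 1 merged list, which also means that single replicates could not be left out. Library depths were not used here, and the lists hold no score for a stricter threshold.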

Other observations

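The CENP-B box, the binding motif of a DNA-binding protein of human centromeres, was searched on both strands as 15 letters, TTCG, any 4 bases, A, any 2 bases and CGGG. The window held 0 matches, so 0 of 700 tiles of 1 kb had it, and chromosome 8 as a whole had 148. No match says only that these letters are not in the window.

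Peaks were sparse proximal to 127.9 Mb, where control had none. DAXX had 16 peaks there, HIRA+HJURP 12, HJURP 7, HIRA+DAXX 5 and HIRA 4. Of the 22 regions they formed, 14 were held by 1 list, against 41 of the 123 regions of the whole window. Regions were not counted over the whole lists. The region at chr8:127821779-127824940, 3162 bp wide and inside ENSG00000253573 and PCAT1, was the only 1 of the 22 held by all 5 knockdown lists. It was singled out after its values were seen.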
